A study of Mus musculus with 41 samples.

Results

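Retained intron transcripts are annotated isoforms that hold, whole or in part, sequence spliced out of other transcripts of the same gene. They were taken here as every transcript that carries the biotype retained_intron in its name in the transcript tables of the 11 mouse embryonic fibroblast (MEF) RNA libraries. This gave 21915 of 142552 annotated transcripts, in 9449 genes. Of these genes, 4151 had 1 such transcript, 1005 had 5 or more, and 9152 also listed a protein coding transcript. The rule itself reads the annotation alone and no measured value.

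Keeping an intron usually brings a stop codon into the reading frame. A ribosome that terminates well upstream of an exon junction is a signal for nonsense-mediated decay (NMD), in which UPF2 bridges the exon junction complex and the helicase UPF1 and the transcript is degraded. HBS1L and PELO form a complex that releases ribosomes stalled on an mRNA, the step on which no-go and non-stop decay depend. Other retained intron transcripts stay in the nucleus, where they are spliced later or degraded, and do not meet a ribosome.

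The study compared MEFs that had lost each of these 3 genes with control cells. All cells were primary C57BL/6 MEFs treated with Tamoxifen and carried CAG-Cre ER, a ubiquitously expressed Cre recombinase that Tamoxifen activates, so the controls (genotype CAG-Cre ER, n = 3) shared both the transgene and the drug. The mutants were CAG-Cre ER; Hbs1l cKO (n = 3), CAG-Cre ER; Pelo cKO (n = 2) and CAG-Cre ER; Upf2 cKO (n = 3), called Hbs1l-/-, Pelo-/- and Upf2-/- below. The study's methods add that every genotype was on the B6J n-Tr20 mutant background, that a replicate was a dish of cells from a single embryo and that embryos were not sexed. The series' design text adds that the authors left out a further Pelo-/- RNA library as an outlier. All 3 comparisons with control use the same 3 control libraries, and all RNA libraries share the label Batch 6.

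The libraries held 22713600 to 86425800 estimated counts. Fibroblast markers were high in all of them, with summed levels of 5126 to 6979 TPM (the length-scaled unit in which all transcripts of a library sum to the same total) in control and 4373 to 8372 in mutant libraries, while 8 erythroid markers summed to at most 0.465 TPM in any library. Markers of 5 other cell types (endothelial, leukocyte, neural, epithelial and muscle) summed to between 15.5 and 130 TPM a list in control libraries, and in the libraries labelled Upf2-/- all 7 of these sums overlapped control. Y-linked RNA was present in 4 libraries (1 control, 1 Pelo-/- and 2 Upf2-/-) and absent from the other 7, so sex differed within and between groups, and its part in the results was not tested. Hbs1l was at 29.0, 37.6 and 38.3 TPM in control and 5.29, 6.00 and 6.24 in Hbs1l-/- libraries. Pelo was at 14.8, 16.9 and 17.5 TPM in control and 0.435 and 0.0698 in Pelo-/- libraries. Upf2 went the other way: its RNA was at 3.82, 5.63 and 4.51 TPM in control and 20.6, 14.4 and 8.61 TPM in the Upf2-/- libraries. A gene total does not show whether the floxed exons are missing, so the label of those 3 libraries is not checked by it, and they are named below as the libraries labelled Upf2-/-.

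What these transcripts keep was read from the Gencode annotation on build GRCm38, in which 21826 of the 21915 were found with the same version and length. A whole intron of another transcript of the gene lay inside an exon of 7008 of them (1 intron in 5147 and 2 or more in 1861). The other 14818 kept no whole intron, and 14404 of those began or ended inside one. The 8387 different kept introns were short, with a median length of 257 bases (quartiles 115.5 to 671.5) against 1479 bases (518 to 3774) for the 132579 other introns of the coding transcripts of the same genes. They had ordinary splice sites, since 8227 (98.1%) started with GT and ended with AG and 104 started with GC. Of 7343 that lie between coding exons, 6499 (88.5%) held a stop codon in the frame of the upstream coding exon, the first at a median of 36 bases into the intron.

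**Figure D1:**
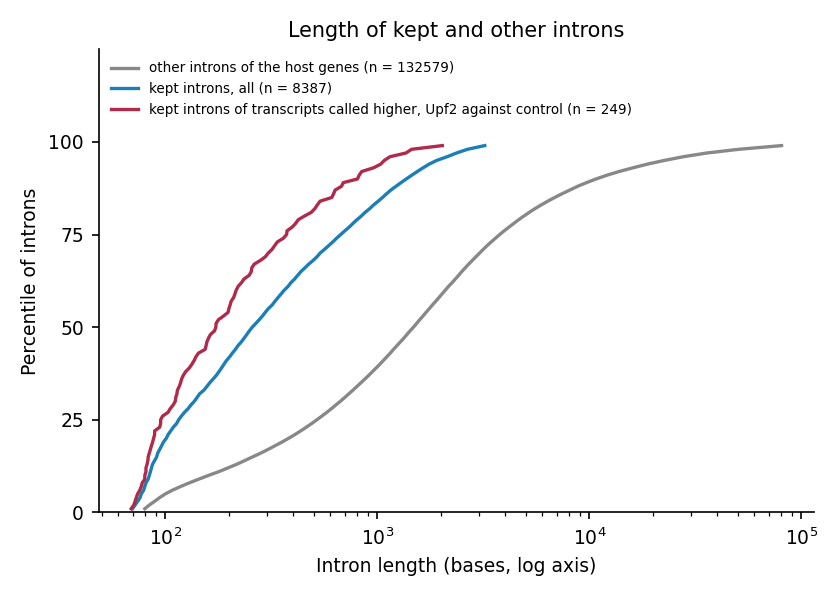
Cumulative length of introns, on a log axis in bases, for the 8387 introns kept by retained intron transcripts, the 249 kept by transcripts called higher in the libraries labelled Upf2-/- and the 132579 other introns of the same genes. Each line gives the length at each percentile. Kept introns sit to the left, at a median of 257 bases, and those of the called transcripts further left, at 173 bases.

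The 8 kept introns printed here belong to transcripts described below. They show what a ribosome would read if it kept the frame of the coding transcript named with each. Whether the transcripts are read in that frame was not tested. The introns are given 5′ to 3′ on the strand of the gene, from build GRCm38, with the first in-frame stop codon in capitals. The first 6 belong to transcripts that rose in the libraries labelled Upf2-/-, the seventh to a transcript that fell in Pelo-/- cells and the last to one that rose in Hbs1l-/- cells.
Necap2-203, intron 3 of 7 of Necap2-201, chr4:141073590-141073674, minus strand, 85 bases: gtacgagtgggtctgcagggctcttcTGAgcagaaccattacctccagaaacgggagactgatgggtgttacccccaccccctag
Naxd-207, intron 6 of 9 of Naxd-201, chr8:11509373-11509452, plus strand, 80 bases: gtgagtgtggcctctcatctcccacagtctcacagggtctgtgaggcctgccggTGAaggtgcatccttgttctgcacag
Rnf25-204, intron 3 of 9 of Rnf25-201, chr1:74598598-74598692, minus strand, 95 bases: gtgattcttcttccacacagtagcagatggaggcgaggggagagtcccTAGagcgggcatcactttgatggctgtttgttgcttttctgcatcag
Tsta3-210, intron 8 of 10 of Tsta3-201, chr15:75925663-75925792, minus strand, 130 bases: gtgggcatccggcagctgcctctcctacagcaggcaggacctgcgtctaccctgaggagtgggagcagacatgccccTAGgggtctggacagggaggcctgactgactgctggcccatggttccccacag
Rpl10a-208, intron 1 of 5 of Rpl10a-201, chr17:28328619-28328810, plus strand, 192 bases: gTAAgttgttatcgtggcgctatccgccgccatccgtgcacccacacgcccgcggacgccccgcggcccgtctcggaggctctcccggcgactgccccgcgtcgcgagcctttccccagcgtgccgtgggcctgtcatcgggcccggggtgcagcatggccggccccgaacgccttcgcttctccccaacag
Rpl12-204, intron 1 of 6 of Rpl12-203, chr2:32961840-32962048, plus strand, 209 bases: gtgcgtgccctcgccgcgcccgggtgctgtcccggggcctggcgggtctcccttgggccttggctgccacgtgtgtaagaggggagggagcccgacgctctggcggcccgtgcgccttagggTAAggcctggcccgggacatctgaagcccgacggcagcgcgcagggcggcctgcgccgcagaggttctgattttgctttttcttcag
Krr1-201, intron 4 of 9 of Krr1-203, chr10:111977238-111977314, plus strand, 77 bases: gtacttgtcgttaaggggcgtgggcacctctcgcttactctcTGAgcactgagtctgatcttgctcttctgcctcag
Psmb8-205, intron 2 of 5 of Psmb8-201, chr17:34199381-34199570, plus strand, 190 bases: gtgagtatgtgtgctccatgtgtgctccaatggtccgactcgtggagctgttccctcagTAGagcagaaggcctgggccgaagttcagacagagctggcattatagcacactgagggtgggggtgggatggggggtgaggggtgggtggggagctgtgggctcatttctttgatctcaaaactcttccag
The stop codon begins at base 27 of the intron in Necap2-203, at 55 in Naxd-207, at 49 in Rnf25-204, at 78 in Tsta3-210, at 123 in Rpl12-204, at 43 in Krr1-201 and at 60 in Psmb8-205. In Rpl10a-208 it begins at base 2, within the 5′ splice site. In 7 of the 8 an exon junction of the transcript lies further than 50 bases downstream of the stop, from 128 bases in Naxd-207 to 992 in Rpl10a-208. Rnf25-204 has no junction after its stop.

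Retained intron transcripts made up a small share of MEF RNA. They held 1.84, 2.04 and 2.27% of all TPM in the control libraries, 2.26, 2.08 and 2.14% in Hbs1l-/-, 2.05 and 1.92% in Pelo-/- and 2.15, 2.25 and 2.01% in the libraries labelled Upf2-/-. All mutant ranges overlap the control range. In such bulk samples fewer cells of a type and less RNA per cell cannot be told apart. In an exact two-sided permutation test the difference from control was 0.107 percentage points for Hbs1l-/- (p = 0.5), -0.0648 for Pelo-/- (p = 0.8) and 0.0855 for Upf2-/- (p = 0.7). The smallest p these designs allow is 0.1, both for 3 against 3 libraries and for 2 against 3.

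Read against the genes that contain them, the share lay apart from control in 1 genotype. Retained intron transcripts held 4.50, 4.59 and 4.64% of the TPM of their host genes in control (4.58 ± 0.0752, SD, n = 3), 4.69, 4.54 and 4.55% in Hbs1l-/- and 4.55 and 4.60% in Pelo-/-. In the libraries labelled Upf2-/- they held 5.14, 5.22 and 5.28% (5.21 ± 0.0694, SD, n = 3). These do not overlap the control values and lie 0.635 points above their mean (exact permutation p = 0.1, the smallest possible). Protein coding transcripts held 62.6, 59.9 and 54.05% of all TPM in these libraries against 63.1, 71.3 and 77.3% in control, with no overlap. Their shares of estimated counts, 78.0 to 81.2% against 77.4 to 86.2%, did overlap. The part of this shift in the higher retained intron share was not tested. Retained intron transcripts held 1.34, 1.40 and 1.48% of estimated counts in control and 1.64, 1.68 and 1.69% in the libraries labelled Upf2-/- (exact permutation p = 0.1). By this measure the Pelo-/- libraries lay below every control, at 1.331 and 1.329% (exact permutation p = 0.2).

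**Figure D2:**
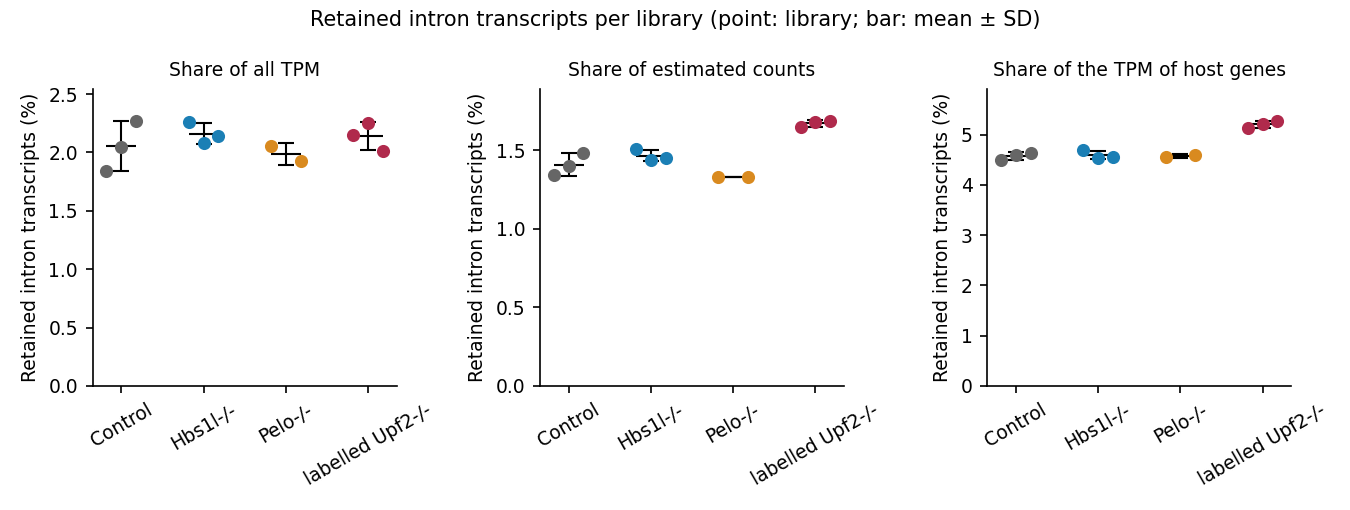
Share of retained intron transcripts in each library, in percent of all TPM (left), of all estimated counts (middle) and of the TPM of the genes that have such a transcript (right). Points are libraries and bars give mean ± SD. On the right, the 3 libraries labelled Upf2-/- sit between 5.14 and 5.28%, above the other 8, which lie between 4.50 and 4.69%.

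Abundance was concentrated in few transcripts of highly expressed genes. Of the 21915, 19610 had at least 1 estimated count in some library, 5487 had it in all 11, and 1921 were listed at 0 throughout. On average over the controls 1795 reached 1 TPM. The 10 highest held 24.6 to 25.3% of all retained intron TPM in control libraries and 19.4 to 20.1% in those labelled Upf2-/-. Vim-203, from the gene of the intermediate filament vimentin, was first, at 931, 999 and 1150 TPM in control. It was followed by Ppia-203 of the prolyl isomerase cyclophilin A (mean 791 TPM), by Rps20-201 (658), Rps16-203 (639) and Rps16-202 (577) of ribosomal protein genes, and by Ppia-204 (397). Prelid1-202, of a mitochondrial lipid carrier, had a mean of 298 TPM, Ppp1r14b-202, of a phosphatase inhibitor, 286, Calr-204, of the chaperone calreticulin, 259, and Ncl-202, of nucleolin, 206. None of these 10 passed the test in the libraries labelled Upf2-/-, where their log2 fold changes ran from -0.72 to -0.13.

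Most genes made little of their RNA this way. Among 5055 host genes with at least 5 TPM in control, the median share of the gene's TPM in retained intron transcripts was 1.79% (quartiles 0.504 to 6.72%). It was at most 1% in 1911, at least 10% in 956 and at least 50% in 105. The highest shares belonged to Taf10, a subunit of the general transcription factor TFIID (98.6, 98.6 and 99.2% in control), and to Atg4d, an autophagy protease (96.4, 96.2 and 95.9%). Next came Usp15, a deubiquitinase (96.0, 95.5 and 95.9%), which does not differ from Atg4d beyond their spread. They were followed by Mrpl57, a mitochondrial ribosomal protein (93.9, 93.2 and 94.5%), by Chic2 (92.6, 92.5 and 93.4%), by Tsn, the nucleic acid binding protein translin (91.0, 91.6 and 91.7%), and by Nmd3, the export adaptor of the large ribosomal subunit (89.4, 93.2 and 89.8%). Gm43305, AA465934 and Zbtb20 complete the 10, but for AA465934 and Zbtb20 1 control library stood apart, with gene levels of 65.9 and 55.04 TPM against 5.95 to 8.56 TPM in the other two. The assignment of a gene's reads to these isoforms is an estimate of kallisto, which splits shared reads between isoforms. No value here comes from intron reads alone.

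In Hbs1l-/- cells few of these transcripts passed the test. Of 4587 tested, 2 were higher and 5 lower than control by edgeR's quasi-likelihood test, against 1.31% of all 36633 transcripts called in either direction, and 325 had an unadjusted p under 0.05. The median log2 fold change was 0.03. Leaving out any 1 library took the 7 calls to 0, and those over all transcripts as well.

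Psmb8-205, from the gene of an immunoproteasome subunit, was the rise that met the level rule. It was at 0.493, 0.525 and 0.722 TPM in control and 4.72, 5.13 and 1.92 TPM in Hbs1l-/- cells (log2 fold change 2.74, SE 0.43, adjusted p = 0.0488). The 3 mutant libraries lie above every control, and the lowest of them, at 1.92 TPM, lies well below the other two. The whole gene rose beside it, from 1.17, 1.84 and 2.05 TPM to 12.1, 13.7 and 6.04 TPM, with footprints up by 2.04 on the log2 scale (SE 0.29, adjusted p = 0.00014). Among the falls, 2200002D01Rik-202 went from 61.2, 54.1 and 64.9 TPM to 25.7, 19.8 and 27.7 TPM (log2 fold change -1.31, SE 0.19, adjusted p = 0.0446), with no overlap. Sema3e-202, of a semaphorin that guides axons and vessels, fell from 3.804, 4.66 and 4.02 TPM to 2.19, 2.14 and 2.01 TPM (-1.001, SE 0.11, adjusted p = 0.038), and its gene fell alike, from 6.1, 7.1 and 6.3 TPM to 3.5, 3.7 and 3.6 TPM. Sipa1l3-203 (-2.16) and Disp1-203 of a Hedgehog release protein (-1.81) fell too. Footprints of 4 of the 5 genes with a fall were lower too, where 16.7% of all 11984 genes were lower and 17.4% higher (34.1% in either direction). Summed markers of other cells did not overlap control in these libraries: leukocyte markers were at 147 to 198 TPM against 70.9 to 115 TPM, endothelial at 6.90 to 7.79 against 15.5 to 20.6, neural at 70.6 to 81.4 against 95.1 to 130, epithelial at 16.3 to 26.4 against 34.1 to 44.1, and muscle at 11.99 to 19.1 against 21.8 to 31.0. Their part in the results was not tested.

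In Pelo-/- cells few members passed the test. Of 4015 tested, 2 (0.0498%) were higher and 14 (0.349%) lower, where 0.722% of all 34903 transcripts were higher and 1.64% lower (2.37% in either direction), with 329 at an unadjusted p under 0.05 and a median log2 fold change of 0.04. The sign of this median turned without the second Pelo-/- library (-0.06) and with a filter at 1 estimated count (-0.10) or at 1 TPM (-0.04), and over all alternatives it ran from -0.10 to 0.17. Leaving out any 1 control library, or testing log2(TPM + 0.1) with limma, took the 16 calls to 0, and those over all transcripts as well. Without 1 of the 2 Pelo-/- libraries the spread comes from the other group alone and the lone library is assumed to vary alike. In these libraries summed epithelial markers were at 68.6 to 81.8 TPM against 34.1 to 44.1 TPM in control and fibroblast markers at 7188 to 7813 TPM against 5126 to 6979 TPM, with no overlap, and their part in the results was not tested.

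Usp15 and Nmd3, whose RNA is mostly assigned to retained intron isoforms, each had a pair of the falls. Usp15-208 went from 16.4, 17.4 and 18.5 TPM in control to 6.85 and 5.02 TPM in Pelo-/- cells (log2 fold change -1.73, SE 0.15, adjusted p = 0.0311), below every control. Nmd3-208 went from 33.5, 32.6 and 35.1 TPM to 17.5 and 11.2 TPM (-1.43, SE 0.21, adjusted p = 0.0463), and Nmd3-207 (-1.54) and Usp15-209 (-1.49) fell with them. Krr1-201, of a protein that builds the small ribosomal subunit, went from 4.69, 6.68 and 6.31 TPM to 2.50 and 1.68 TPM (-1.67, SE 0.20, adjusted p = 0.0374). Ncl-202 went from 161, 222 and 234 TPM to 115 and 87.6 TPM (-1.20, SE 0.14, adjusted p = 0.0368), and Rpl4-203, of a large subunit protein, from 13.9, 16.0 and 16.4 TPM to 6.47 and 6.73 TPM (-1.39, SE 0.16, adjusted p = 0.0365). Mad2l1-203 of the spindle checkpoint (-1.73), Tbc1d15-202 of a Rab regulator (-1.29) and Smarca5-202 of a chromatin remodeller (-1.25) also fell.

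The level of the whole gene, which includes the member, was below every control in both Pelo-/- libraries for all 12 host genes of the falls, against 19.4% of 14385 genes with a tested transcript. A protein coding transcript was called lower in 4 of the 12, against 3.75% of 12762 genes. Usp15 as a whole went from 30.8, 34.9 and 34.9 TPM to 14.7 and 11.3 TPM, with 91.2 and 95.4% of it still in retained intron transcripts. Nmd3 went from 60.1, 68.0 and 68.2 TPM to 32.1 and 22.9 TPM with 92.9 and 88.2% in them. The level of several of these members was low in other libraries too: Usp15-208 was at 10.1 TPM in the first Hbs1l-/- library and at 7.44 TPM in the third library labelled Upf2-/-, and Ncl-202 at 136 and 73.7 TPM in the same 2 libraries. Footprints of the 12 genes with a fall were higher in 5 and lower in 1, where 22.9% of 12486 genes were higher and 21.2% lower (44.1% in either direction). Of the 2 members that were higher, Clptm1-208 rose by 0.46 and the other by 1.31 on the log2 scale.

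The libraries labelled Upf2-/- stood apart. Of 5696 members tested, 277 (4.86%) were higher than control and 8 (0.14%) lower, where 4.37% of all 40620 transcripts were higher and 0.985% lower. No test of the difference between these shares was run. The median log2 fold change of members was 0.26, and 64.2% were above 0, against a median of 0.00 over all tested transcripts, -0.09 over protein coding transcripts and 0.88 over those annotated as NMD targets, of which 14.7% were higher. Other noncoding classes lay near the members, with a median of 0.21 and 5.59% higher for processed transcripts and 0.13 and 5.22% for lncRNAs, and with 0.333 and 0.0725% of them lower. Leaving out 1 library cut the higher calls to between 87 and 162, and those over all transcripts to between 511 and 1184. The median of members stayed between 0.08 and 0.32 under all alternatives.

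Members with the largest rises were at or near 0 in control. Necap2-203, of a clathrin adaptor binding protein, was listed at 0 in the 3 controls and reached 13.6, 8.68 and 10.8 TPM in the libraries labelled Upf2-/-, at least 65.0-fold higher when control is put at 3 counts a library (adjusted p = 0.0046). Wdr73-205 went from 0 in all 3 controls to 3.598, 2.78 and 3.05 TPM (at least 75.4-fold, adjusted p = 0.00295). Low levels of both were listed in some Hbs1l-/- libraries. An exact 0 can be the outcome of the estimate.

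Rnf25-204, of a RING finger ubiquitin ligase, had counts in every library. It was at 0.599, 0.572 and 0.392 TPM in control, 0.153 to 0.544 in Hbs1l-/-, 0.940 and 0.682 in Pelo-/- and 18.2, 11.9 and 15.5 TPM in the libraries labelled Upf2-/- (log2 fold change 4.87, SE 0.40, adjusted p = 0.00295), with a wide gap between the last 3 and the other 8. Naxd-207, of an enzyme that repairs damaged NADH, rose from 0.394, 0.447 and 1.02 TPM to 8.21, 7.55 and 8.95 TPM (3.65, SE 0.43, adjusted p = 0.00949). Ddx49-205, of a DEAD-box helicase, rose from 0.205, 0.222 and 0.515 TPM to 4.67, 3.59 and 3.98 TPM (3.59, SE 0.39, adjusted p = 0.00729). Sirt7-206, of a nucleolar deacetylase, Tle5-202, of a transcriptional corepressor, Tsta3-210, of GDP-fucose synthase, and Ssr4-204, of a translocon-associated protein, had log2 fold changes of 5.72, 4.80, 3.97 and 3.84 (adjusted p from 0.0117 to 0.0496). In each of these 9 the lowest library labelled Upf2-/- lay above the highest of the other 8.

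Among the 8 falls, 4 met the level rule. Rpl10a-206 went from 2.71, 3.57 and 3.93 TPM to 0 in all 3 libraries labelled Upf2-/-, at least 43.3-fold lower (adjusted p = 0.00452). This stands beside a rise of Rpl10a-208, an isoform of the same gene that overlaps it, from 1.40, 1.06 and 1.55 TPM to 9.31, 12.7 and 10.3 TPM (log2 fold change 2.96, SE 0.25, adjusted p = 0.00308). Summed over all retained intron transcripts of Rpl10a the level rose from 20.6, 26.3 and 13.5 TPM to 57.1, 69.2 and 64.3 TPM, so the sum went the other way from this isoform. Reads that 2 isoforms share can be assigned to either in the estimate. Myl12b-202, of a myosin light chain (-1.35), Aif1l-204, of an actin-binding protein (-1.20), and Gnb1-206, of a G protein subunit (-0.55), were the other falls. The remaining 4 were listed at 0 in the libraries labelled Upf2-/-.

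**Figure D3:**
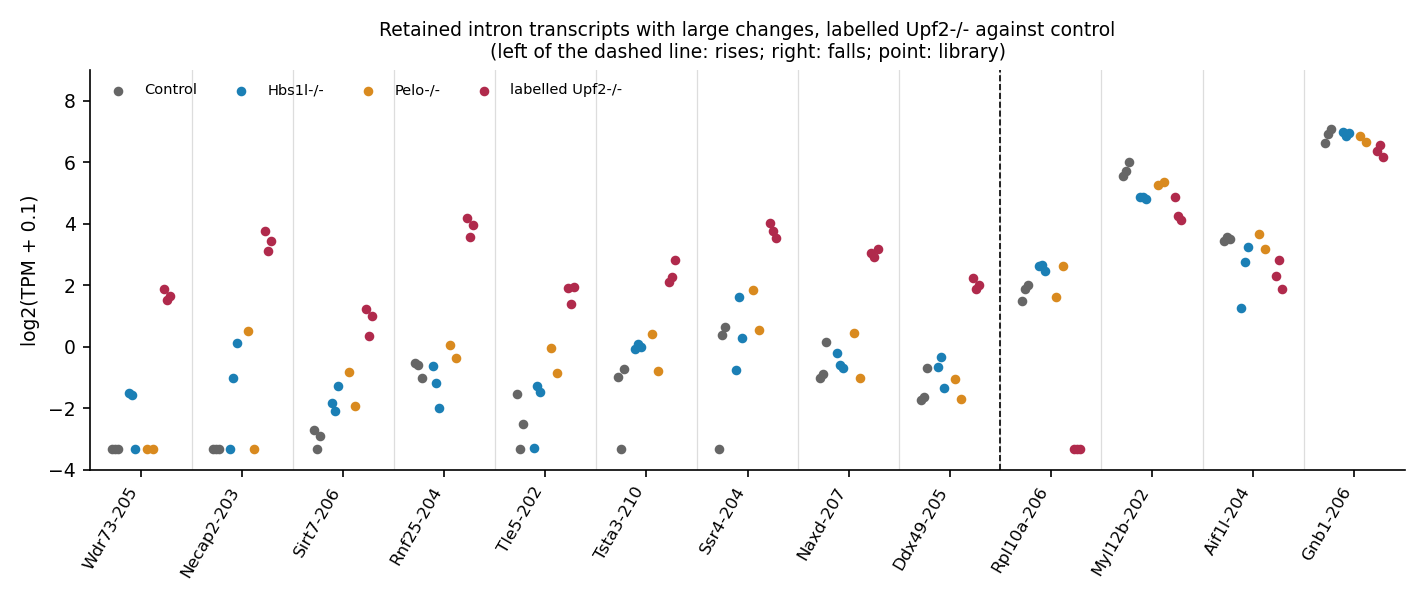
Levels of the 9 retained intron transcripts with large rises and the 4 with falls described here in the libraries labelled Upf2-/-, as log2(TPM + 0.1), 1 point per library. Points on the lowest level are listed at 0. To the left of the dashed line the 3 libraries labelled Upf2-/- lie above the other 8, and for Rpl10a-206 they lie at 0.

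What a member keeps went with how it moved in the libraries labelled Upf2-/-. Of 1507 tested members whose kept intron brings a stop codon more than 50 bases before the last exon junction, 143 (9.49%) were higher and 2 lower, with a median log2 fold change of 0.55 and quartiles of 0.02 and 1.29. Of 1098 that keep a whole intron without such a stop, 59 (5.37%) were higher and 0 lower, with a median of 0.29. Of 3067 that keep no whole intron, 73 (2.38%) were higher and 6 lower, with a median of 0.12. The medians kept this order when members were split into 3 equal groups by abundance. That abundance includes the libraries labelled Upf2-/-, so the split is not independent of the change. Among the most abundant members the medians were 0.61, 0.24 and -0.03, and 20.4, 12.1 and 5.26% were higher. In the middle group 3.18, 2.70 and 1.67% were higher. In the least abundant 1.23, 1.37 and 0.626% were, so that there the stop class did not come first. Leaving out 1 library took the share of the stop class called higher to between 2.83 and 6.15%, and with the replicate block the 3 classes had 0.199, 0 and 0.13%, so that the order of the last 2 turned. This is a description of classes made from the annotation, with no test.

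In the other mutants the medians of the same classes were 0.05, 0.00 and 0.03 in Hbs1l-/- and 0.15, -0.01 and 0.01 in Pelo-/- cells. In Pelo-/- cells they moved with the processing, to 0.02, -0.07 and -0.10 without the second Pelo-/- library and to 0.20, 0.01 and -0.05 without the first, and over all alternatives that of the stop class ran from 0.02 to 0.24. In Hbs1l-/- cells the 3 medians ran from -0.05 to 0.07 over all alternatives. The direct comparison of mutants, which does not use the control libraries, gave medians of 0.53, 0.29 and 0.09 for the libraries labelled Upf2-/- against Hbs1l-/-, and 0.49, 0.31 and 0.15 against Pelo-/-. Over all members, 463 were higher and 43 lower against Hbs1l-/- (of 6151 tested), where 6.66% of all transcripts were higher and 4.14% lower, and leaving out 1 library cut the higher calls to between 151 and 271 and the lower ones to between 9 and 21. Against Pelo-/- 244 were higher and 26 lower (of 5536), where 4.97% were higher and 3.82% lower, and leaving out either Pelo-/- library, with the spread then taken from the other group alone, took these calls to 0. Pelo-/- against Hbs1l-/- gave 34 higher and 69 lower of 4203, against 8.43% of all transcripts called in either direction. These 103 calls went to 0 without the second Hbs1l-/- library or either Pelo-/- library and to 14 without the third Hbs1l-/- library.

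**Figure D4:**
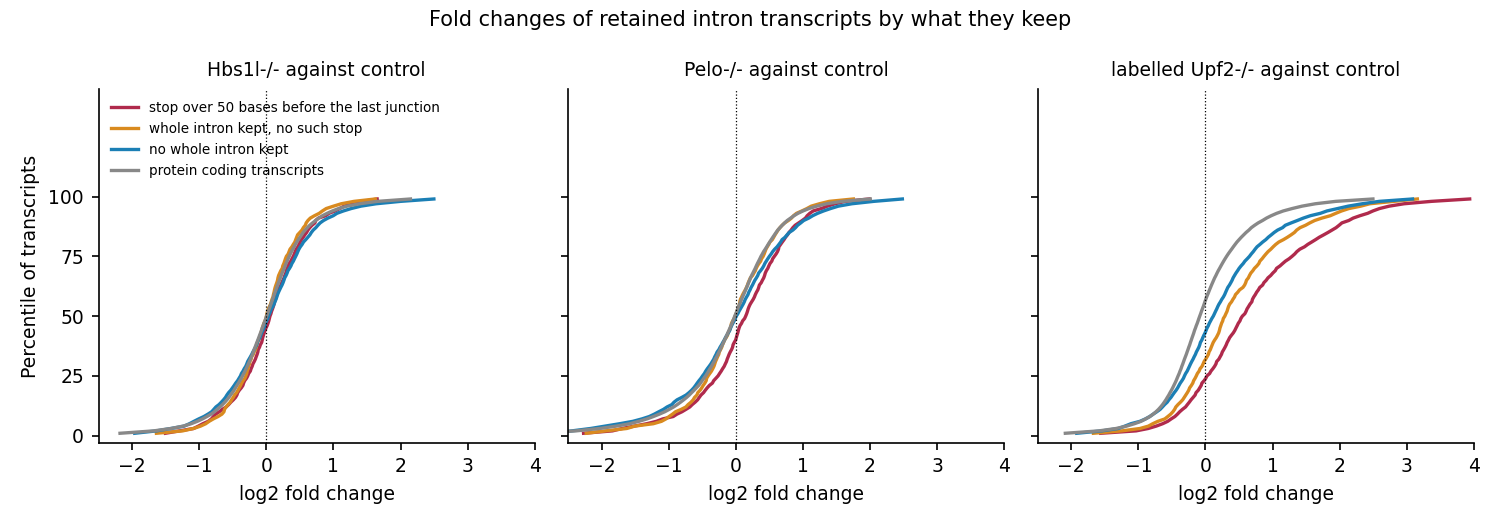
Distribution of log2 fold changes in the 3 comparisons with control for retained intron transcripts that gain a stop over 50 bases before the last junction, that keep a whole intron with no such stop and that keep no whole intron, with protein coding transcripts in grey. Each line gives the fold change at each percentile. In the panel for the libraries labelled Upf2-/- the lines separate, at medians of 0.55, 0.29, 0.12 and -0.09. In the other panels their medians lie between -0.02 and 0.15.

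The introns kept by members that rose were shorter at the median, with no test of the difference. The 275 matched transcripts called higher held 249 whole introns with a median length of 173 bases (quartiles 95 to 373) and a GC content of 56.2%, against 265.5 bases (115 to 691) and 51.7% for members tested and not called. Of the 275, 143 (52.0%) fell in the stop class, against 25.3% of the 5389 not called. Introns of Necap2-203, Naxd-207 and Rnf25-204, printed above, have 85, 80 and 95 bases. Those of Tsta3-210, Rpl10a-208 and Rpl12-204 are longer, with 130, 192 and 209 bases.

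The 277 transcripts that rose came from 250 genes, and for most of these no coding isoform passed the test. Their median fold was 4.53 (4.44 with the 18 listed at 0 in control put at their bound), from a median level of 0.722 TPM in control to 3.79 TPM. Of 247 hosts with a tested coding transcript, 53 had one called higher and 4 one called lower, where 5.42% of 13270 genes had one called higher and 2.58% one called lower, with a median log2 fold change of 0.22. Footprints on the coding sequence, measured in separate libraries of the same genotypes, were higher for 97 of 242 hosts (40.1%) and lower for 24 (9.92%), where 22.3% of all 12166 genes were higher and 21.1% lower, and their median log2 fold change was 0.19. For Rnf25 the footprint change was 0.04 (SE 0.08, adjusted p = 0.731) and for Naxd 0.12 (SE 0.08), while for Necap2 it was 0.30 (SE 0.08, adjusted p = 0.0117). Footprints are counted per gene and do not tell isoforms apart.

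Ribosomal protein genes held the most members of any list examined. Of 138 tested members 13 were higher and 1 (Rpl10a-206) lower, with a median of 0.18, where 4.37% of all transcripts were higher and 0.985% lower. Several of the 13 were isoforms of Rpl10a or Rpl12, and isoforms of 1 gene can share reads. Rpl12-204 rose from 1.15, 1.11 and 0.747 TPM to 6.93, 5.95 and 8.24 TPM (2.80, SE 0.34, adjusted p = 0.0099), and Rpl12-205 and Rpl12-207 rose with it. Among hosts of small nucleolar RNAs, whose introns carry those RNAs, 4 of 60 were higher and 1 lower (median 0.19). These were Snhg5-207 (log2 fold change 3.13), Nop56-217 (2.56), Nop58-202 (2.27) and Tnpo2-205 (1.36), and the lower one, Dkc1-209, was listed at 0. The list of integrated stress response genes had 3 of 21 higher and a median of 0.68. They were Nupr1-202 (2.74), of a stress-induced transcription cofactor, Sars-205 (1.61), of a tRNA synthetase, and Atf4-203 (1.58), of the transcription factor that leads the response. Atf4-203 followed its gene, which went from 103, 135 and 140 TPM to 417, 437 and 363 TPM. Retained intron transcripts held 1.1 to 1.3% of the gene in control and 1.0 to 1.2% in the libraries labelled Upf2-/-.

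Splicing factor genes are known for introns that are kept and regulated. In the list of spliceosome genes 2 of 52 members were higher, U2af2-206 (1.72), of the factor that reads the polypyrimidine tract, and Prpf40b-209 (1.83), with a median of 0.37. Of 51 members of genes with well known detained introns 1 was higher, Luc7l-204 (1.34), with a median of 0.07. None of 20 members of SR protein genes (median 0.30), of 32 of hnRNP genes (0.33), of 7 of NMD factor genes (0.24), of 11 of ribosome rescue genes (0.65), of 3 of interferon-induced genes (1.56) or of 9 of p53 target genes (-0.15) passed the test in either direction. These counts stand against 4.37% of all transcripts called higher, and no test of a difference from that share was run. In Hbs1l-/- cells no member of any list was called, and in Pelo-/- cells Ncl-202 and Rpl4-203 alone.

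A member can rise because its gene rises, so the balance within each gene was tested as well. The test compared counts of retained intron transcripts with counts of all other transcripts of the gene, library by library. In the libraries labelled Upf2-/- the balance moved towards retained intron transcripts in 89 of 6611 genes (1.35%) and away from them in 14 (0.212%). In Hbs1l-/- cells 0 of 6564 genes were called (350 at an unadjusted p under 0.05, and 0 by limma) and in Pelo-/- cells 0 of 5958 (339, and 0 by limma), so 0% were called in both. Without any 1 of the libraries labelled Upf2-/- the 103 calls went to 0, and without 1 control library to between 36 and 56. Of 249 hosts of a member that rose, 73 were called for a higher balance and 2 for a lower one.

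Rnf25 had one of the largest shifts. Its retained intron share was 2.52, 5.76 and 1.47% in control and 33.5, 24.7 and 28.6% in the libraries labelled Upf2-/- (log2 change of the balance 3.81, SE 0.50, adjusted p = 0.0172), while the gene went from 23.8, 23.7 and 26.7 TPM to 55.7, 51.1 and 55.9 TPM. Acp1, of an acid phosphatase, went from 1.06, 1.01 and 0.339% to 10.7, 17.6 and 14.1% (4.89, SE 0.52, adjusted p = 0.00782). The gene was at 28.3 to 34.5 TPM in control and 21.4 to 36.5 TPM in the libraries labelled Upf2-/-. Pltp, of a phospholipid transfer protein, went from 0, 1.32 and 0.361% to 9.77, 11.8 and 10.9% (4.61, SE 0.57, adjusted p = 0.0117). Tspan14 was at 0 in all controls and at 3.88, 4.69 and 4.06% in the libraries labelled Upf2-/-. The shares of these 4 genes in control do not overlap those in the libraries labelled Upf2-/-.

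In all 14 genes whose balance fell the level of the whole gene was above every control in each library labelled Upf2-/-, against 22.5% of the 6611 genes tested. The falls depend on what the other transcripts are. With protein coding transcripts alone as the other class, 90 genes were called for a higher balance and 4 for a lower one. Of the 14, 6 (Snhg1, Snhg5, Snhg17, Zfas1, Gas5 and 1110038B12Rik) could not then be tested, 4 (Gadd45g, Gadd45b, Ddit3 and 9930104L06Rik) were called lower, and Rpl12 was called higher, with a log2 change of the balance of 1.46 (SE 0.25, adjusted p = 0.0436). Snhg1, a host of small nucleolar RNAs whose spliced RNA is degraded by NMD, went from 57.1, 80.7 and 79.5 TPM to 1016, 751 and 636 TPM. Its retained intron transcripts were at 7.21, 8.90 and 10.5 TPM in control and 7.98, 10.03 and 8.58 TPM in the libraries labelled Upf2-/-. Its share therefore went from 12.6, 11.02 and 13.3% to 0.786, 1.34 and 1.35% (-3.58, SE 0.32, adjusted p = 0.00772). Zfas1 and Snhg17, hosts of the same kind, had changes of -3.15 (SE 0.37, adjusted p = 0.0115) and -2.70 (SE 0.28, adjusted p = 0.00782). For Zfas1 the retained intron level itself was higher, at 58.3, 35.7 and 23.3 TPM against 11.7, 16.4 and 18.3 TPM, in a gene that went from 50.7, 53.4 and 58.4 TPM to 923, 896 and 757 TPM. Gadd45g and Gadd45b, stress genes known as NMD targets, had changes of -3.15 (SE 0.28, adjusted p = 0.00772) and -2.97 (SE 0.45, adjusted p = 0.0248). Gadd45g was at 111 to 118 TPM in control and 1436 to 1702 TPM in the libraries labelled Upf2-/-.

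**Figure D5:**
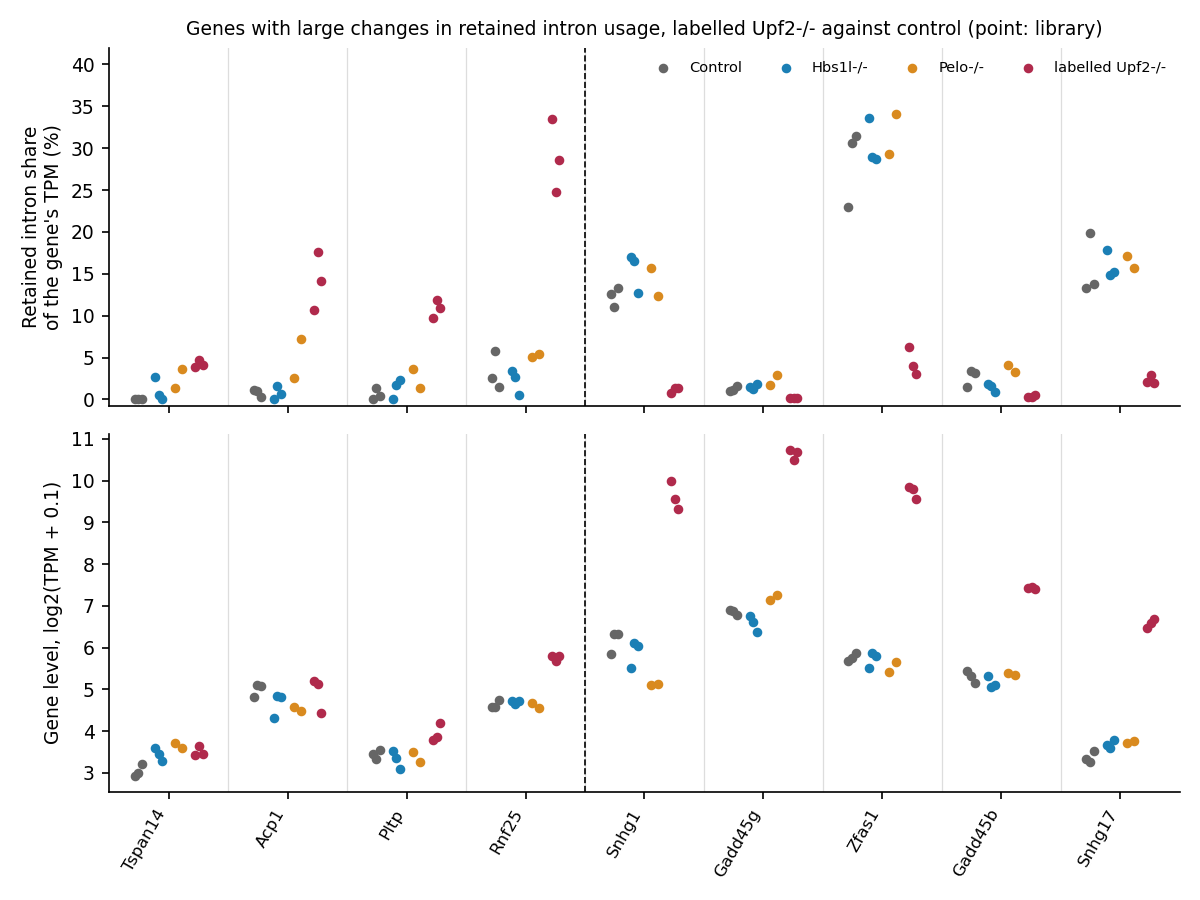
Share of each gene's TPM held by its retained intron transcripts (top, percent) and level of the gene (bottom, log2(TPM + 0.1)) for 4 genes with a large rise and the 5 with the largest fall of the balance in the libraries labelled Upf2-/-, 1 point per library. In Rnf25 the share lies between 24.7 and 33.5% in the libraries labelled Upf2-/- and at most at 5.76% in the others. In Snhg1 the share falls while the gene level rises.

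Hbs1l itself has 4 retained intron transcripts, and Pelo and Upf2 have 0. Their summed level was 0.370, 1.09 and 0.961 TPM in control, 0.475, 0.407 and 0.529 TPM in Hbs1l-/- cells and 2.89, 3.54 and 2.26 TPM in the libraries labelled Upf2-/-. In the last the share of Hbs1l was 7.13, 10.1 and 8.87%, against 1.28, 2.91 and 2.51% in control (log2 change of the balance 2.08, SE 0.37, adjusted p = 0.0461), with the gene at 25.5 to 40.5 TPM. Hbs1l-206 was at 0.185, 0.775 and 0.915 TPM in control and 2.45, 3.00 and 2.12 TPM in the libraries labelled Upf2-/- (log2 fold change 1.91, SE 0.51, adjusted p = 0.0867) and was listed at 0 in all 3 Hbs1l-/- libraries. It was looked at because the gene is one of those deleted.

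Nuclear RNA is a further place where kept introns are found. The summed level of 6 nuclear RNAs, Malat1 and Neat1 among them, was 86.3 to 134.5 TPM in control, 74.9 to 96.2 in Hbs1l-/-, 108 to 114 in Pelo-/- and 120 to 140 TPM in the libraries labelled Upf2-/-, so the last overlap control in part. Malat1 makes up most of the sum, at 58.6, 91.1 and 53.9 TPM in control and 78.1, 74.1 and 65.5 TPM in the libraries labelled Upf2-/-. Neat1 alone was at 1.32, 2.73 and 1.87 TPM in control and at 5.64, 6.37 and 4.17 TPM in the libraries labelled Upf2-/-, which do not overlap. It was at 3.43, 3.09 and 2.14 TPM in Hbs1l-/- and 3.23 and 4.09 TPM in Pelo-/- cells. The part of these RNAs in the rise of the members was not tested. Less RNA of the other isoforms and more of the retained intron isoform cannot be told apart from shares alone, which is why levels are given beside them.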

How the data were processed

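The 11 MEF RNA libraries (polyA RNA, KAPA stranded kit, paired reads) were quantified by the authors with kallisto 0.42.4 against Gencode release 24, and the deposited tables give estimated counts and TPM per transcript. Retained intron members and host gene lists were chosen with earlier results of these data known. Estimated counts were rounded and every transcript that passed filterByExpr was tested with edgeR 4.0.16 (TMM factors, quasi-likelihood test, Benjamini-Hochberg adjustment over all transcripts, threshold 0.05, no block), after tests on simulated data. In the simulation of the Upf2 against control comparison (39093 transcripts) 51% of changes of 2-fold and 100% of 4-fold were recovered. Changes were placed only in transcripts above 1 CPM, with the same spread set for every transcript. Recovery for less abundant members, and for the comparison with Pelo-/- libraries, was therefore not measured. The balance within a gene was tested as the interaction of class and genotype with library as a block, over genes with at least 10 estimated counts in each class. Library shares were compared with exact permutation tests. Footprints were deposited as counts per gene on coding sequence (the authors used HISAT2 2.1.0, Bowtie2 2.2.3 and featureCounts on mm10), of which 18 MEF libraries were tested in the same way with histone genes left out. Footprints of embryos and cerebellum were not used here. Introns came from Gencode release 21 on GRCm38. Introns of at least 30 bases were taken, and frames came from a coding transcript of the gene. A floor of 3 counts a library bounds folds against groups at 0. Intervals of counting error were not computed for estimated counts. Named transcripts are the 10 highest in control and, per comparison, up to 10 rises and 10 falls with an average of at least 1 CPM whose groups do not overlap. Named genes are the 10 highest shares at 5 TPM or more and 5 changes of the balance in each direction, and up to 4 members a list, less some transcripts and genes that are not reported here. Alternatives were DESeq2 1.42.0, RLE factors, other filters, limma 3.58.1 on log2(TPM + 0.1) and log2(TPM + 1), thinning, 1 fit over 11 libraries, leaving out libraries and a replicate block. Nothing in the labels says that the numbers of replicates pair samples, and p-values measure the spread between dishes of single embryos.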

Additional observations from a re-analysis of the deposited data

How the results depend on the processing

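Counts of members called moved with the tool and the number of libraries, while no transcript named for its change turned its sign by DESeq2, RLE factors, limma on log2(TPM + 0.1), thinning, the block or leaving out a library, where it could be fitted. Their calls were lost more often: the block lost all 5 in Hbs1l-/-, 11 in Pelo-/- and 26 in the libraries labelled Upf2-/-, and leaving out a library lost 30, 55 and 80 calls and kept 0, 0 and 76. Calls over all transcripts moved with the tool too. In Hbs1l-/- 269 higher and 212 lower became 2052 and 1686 by DESeq2 and 0 in both directions with the block. In the libraries labelled Upf2-/- 1775 higher and 400 lower became 3472 and 2167 by DESeq2 and 109 and 3 with the block. Among members in Hbs1l-/- the balance of directions turned, from 2 higher and 5 lower to 56 and 39 by DESeq2. It was 9 and 8 with a filter at 1 TPM and 19 and 17 in 1 fit over 11 libraries. For Hbs1l-/- against control (7 calls) DESeq2 gave 95, a filter at 1 TPM 17, 1 fit over 11 libraries 36, the replicate block 0 and leaving out a library 0 to 0. For Pelo-/- (16) these were 136, 42, 67, 0 and 0 to 0, with 0 by limma on log2(TPM + 0.1) and 0 on log2(TPM + 1). For the libraries labelled Upf2-/- (285) DESeq2 gave 590, limma 453 and 604, the replicate block 7 and leaving out a library 88 to 166. Against Hbs1l-/- (506) DESeq2 gave 762, a filter at 1 estimated count 336, limma on log2(TPM + 1) 799, the block 52 and leaving out a library 160 to 292. Against Pelo-/- (270) the values were 559 by DESeq2, 416 by limma on log2(TPM + 1), 0 with the block and 0 to 135. Pelo-/- against Hbs1l-/- (103) gave 249, 171, 0 and 0 to 84. Balance calls in the libraries labelled Upf2-/- (103) were 160 at 30 or more counts, 0 with the replicate block in limma and 0 to 56 without a library. The difference in the share of all TPM changed sign for Pelo-/- without its second library (0.00102), without the third control (0.0439) and with the replicate block (0.0439). For the libraries labelled Upf2-/- it changed sign without the first control (-0.0188). Left out in turn, libraries gave differences of 0.0026 to 0.216 points for Hbs1l-/- and -0.169 to 0.0439 for Pelo-/-. For the libraries labelled Upf2-/- they were -0.0188 to 0.194 points. Deviations of same-numbered control and mutant libraries from their group means had correlations of -0.0374 to 0.0294. Within a group so small these deviations sum to 0, so this check cannot decide whether the numbers pair samples. In the stop class calls were fewer at low counts: with the tested members of the Upf2 comparison split into 3 equal groups by abundance, 1.23% of the stop class were called higher in the lowest group, against 20.4% in the highest. The abundance used includes the libraries labelled Upf2-/- and so is not independent of a rise in them. The causes of these moves were not tested.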
